A study of Mus musculus with 6 samples.

Results

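Broad methylation-enriched intervals that carry the symbol of a single gene were examined in the mouse heart at postnatal day 1 (P1) and postnatal day 14 (P14). The authors' interval table lists 213957 distinct genomic intervals, of which 68634 carry a gene symbol. An interval was included when it lay on chromosomes 1 to 19, was at least 3000 bp wide and had exactly 1 gene symbol. This rule uses position, width and annotation and no read count, and it gave 1087 intervals at 886 genes. They made up 1.77% of the autosomal intervals with a single gene, and the other 60384 of these were narrower. A further 276 intervals were as broad but carried more than 1 symbol.

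The DNA came from male C57BL/6 mice, with 3 libraries from P1 and 3 from P14, which the design text calls biological replicates. The labels give the tissue as left ventricle, whereas the growth protocol describes ventricles with the septum kept and the atria removed. None of the groups carried a transgene or a treatment, according to the labels, and age was the only stated difference. Because whole tissue was used, a change in the mix of cell types and a change of methylation within cells cannot be told apart.

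Methyl-CpG-binding domain sequencing (MBD-seq) captures double-stranded DNA fragments through a protein domain that binds methylated CpG dinucleotides. Read number over an interval therefore reflects both how many CpGs lie there and how many of them are methylated, and it is not a percentage of methylated cytosines. In mammalian genomes most CpGs in gene bodies are methylated, whereas CpG islands at the starts of widely used genes are usually free of methylation. The weeks after birth are the time when mouse cardiomyocytes leave the cell cycle and mature.

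Most of the broad intervals lay inside gene bodies, and 23 of them reached over a start of their own gene in the RefSeq promoter table, with 25 listed starts between them. The 250 bases upstream of 5 of these starts are shown because they are the places where broad enrichment met a gene start, with every CpG in capitals. They were read from the RefSeq promoter table of GRCm38.p6, run 5′ to 3′ on the strand of the gene, and were chosen after their values were seen. D1Pas1 (a testis-expressed relative of the RNA helicase Ddx3x; chr1:186967166-186967415, plus strand) and Nt5dc2 (a 5′-nucleotidase domain protein; chr14:31134486-31134735, plus strand) are from the denser of the intervals over a start. Peg3 (a paternally expressed imprinted zinc finger gene; chr7:6730420-6730669, minus strand) and Sohlh1 (a germ cell transcription factor; chr2:25847249-25847498, minus strand) are genes whose starts are known to carry DNA methylation in somatic tissue. Tnxb (tenascin-X, an extracellular matrix glycoprotein; chr17:34670285-34670534, plus strand) is the gene of this set that rose at P14, and the start shown is an internal one. The start shown for Nt5dc2 is internal too. Other covered starts also lie inside the gene span, among them those at Inpp4a, Alppl2 and Fat2.
D1Pas1: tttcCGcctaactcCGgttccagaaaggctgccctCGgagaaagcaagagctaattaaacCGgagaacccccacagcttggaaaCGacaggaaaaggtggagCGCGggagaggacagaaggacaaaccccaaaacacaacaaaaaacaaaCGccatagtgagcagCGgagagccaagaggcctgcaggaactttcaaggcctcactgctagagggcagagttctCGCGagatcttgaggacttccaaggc
Nt5dc2: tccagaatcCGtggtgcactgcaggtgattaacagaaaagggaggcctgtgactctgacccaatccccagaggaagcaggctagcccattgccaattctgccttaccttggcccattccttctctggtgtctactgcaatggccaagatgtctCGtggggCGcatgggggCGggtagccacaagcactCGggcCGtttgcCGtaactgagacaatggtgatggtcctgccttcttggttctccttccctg
Peg3: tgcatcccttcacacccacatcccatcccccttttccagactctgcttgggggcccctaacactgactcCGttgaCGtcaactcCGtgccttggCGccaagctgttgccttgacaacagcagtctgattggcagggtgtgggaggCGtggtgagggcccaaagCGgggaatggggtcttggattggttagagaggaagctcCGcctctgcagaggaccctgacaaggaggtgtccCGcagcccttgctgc
Sohlh1: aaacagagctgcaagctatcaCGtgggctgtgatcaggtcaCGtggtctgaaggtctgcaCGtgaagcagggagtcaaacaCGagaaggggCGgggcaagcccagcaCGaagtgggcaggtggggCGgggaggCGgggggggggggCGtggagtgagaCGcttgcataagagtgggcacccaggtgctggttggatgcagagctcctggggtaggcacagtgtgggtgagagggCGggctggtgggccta
Tnxb: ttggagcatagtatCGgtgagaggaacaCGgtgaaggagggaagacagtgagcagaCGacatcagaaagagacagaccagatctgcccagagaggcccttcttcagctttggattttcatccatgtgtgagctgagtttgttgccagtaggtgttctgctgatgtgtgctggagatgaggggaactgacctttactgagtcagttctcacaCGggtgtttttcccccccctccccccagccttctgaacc

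The upstream sequences held 11 CpGs at D1Pas1, 7 at Nt5dc2, 8 at Peg3, 11 at Sohlh1 and 4 at Tnxb. All 250 bases lay within the broad interval at D1Pas1, Peg3, Sohlh1 and Tnxb, and 204 did at Nt5dc2. Over the 25 covered starts the count of the motif CG ranged from 2 to 16 with a median of 6, the same median as over all 32851 promoters of the table. At least 1 CG occurred in 92.1% of all promoters. The covered starts differed at the CpG-rich end, where 1 of 25 held 15 or more CpGs against 27.3% of all promoters. Several of the 25 are internal starts, and closely spaced starts of Celf3 were counted separately. The 1 start with 15 or more CpGs belongs to Mfsd6l, a gene of the major facilitator superfamily, with 16 CpGs. The letter count is a description of these windows and was not tested. The promoter table has no entries for chromosome 18, which carries 29 of the broad intervals.

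Reads were counted over the whole of each interval, not at the start alone, and every library had reads in the intervals named here. The interval over the D1Pas1 start (chr1:186966274-186969881) had 113, 134 and 125 P1 reads against 419, 241 and 167 at P14. That at Rbp3, an interphotoreceptor retinoid-binding protein (chr14:33953932-33957067), had 80, 93 and 97 P1 reads against 560, 162 and 128 at P14. The Nt5dc2 interval (chr14:31134532-31137677) held 101, 104 and 105 reads against 443, 179 and 108, and that of Alppl2, an alkaline phosphatase of the embryo, held 105, 89 and 90 against 396, 175 and 117. The Peg3 interval over the start (chr7:6727122-6731394) had 94, 76 and 81 P1 reads against 268, 137 and 86 at P14. At Sohlh1 (chr2:25844669-25847836) the numbers were 60, 54 and 49 at P1 and 200, 103 and 81 at P14. In each of these 6 intervals P14 replicate 1 gave the highest number of raw reads. Relative to the other gene-named intervals, the log2 change from P1 to P14 was 0.05 at D1Pas1, 0.40 at Rbp3 and 0.02 at Nt5dc2. It was 0.10 at Alppl2 and 0.12 at Sohlh1, and none of the 6 intervals passed the test given below. The size of the enriched fraction of P14 replicate 1 is described next.

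The libraries held 16284216 to 21512072 reads over the table. The reads that fell in gene-named intervals made up 7.58%, 8.77% and 8.21% of the P1 libraries and from 11.2% to 24.0% of the P14 libraries. The highest value was that of P14 replicate 1, which stood apart. Counts over the broad intervals are therefore given below both against the whole table and against the reads in gene-named intervals. In the second case a change is relative to the other gene-named intervals.

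The broad intervals were 3501 bp wide at the median and up to 14787 bp, against a median of 866 bp for the narrower intervals with a single gene. Their median read density, averaged over the 6 libraries, was 37.3 reads per kb. It was 27.5 reads per kb in the narrower intervals, 39.7 in the broad intervals with several genes and 9.35 in intervals with no gene symbol. The median broad interval held 83.3 reads per library at P1 and 182.3 at P14, compared with 16.0 and 33.3 for a narrower one. Just inside the width limit lay Dennd3 (3000 bp, 53.4 reads per kb) and Nid2 (3001 bp, 36.1 reads per kb), and just outside it lay Anks1 (2998 bp, 52.6 reads per kb) and Adcy1 (2997 bp, 33.8 reads per kb).

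**Figure D1:**
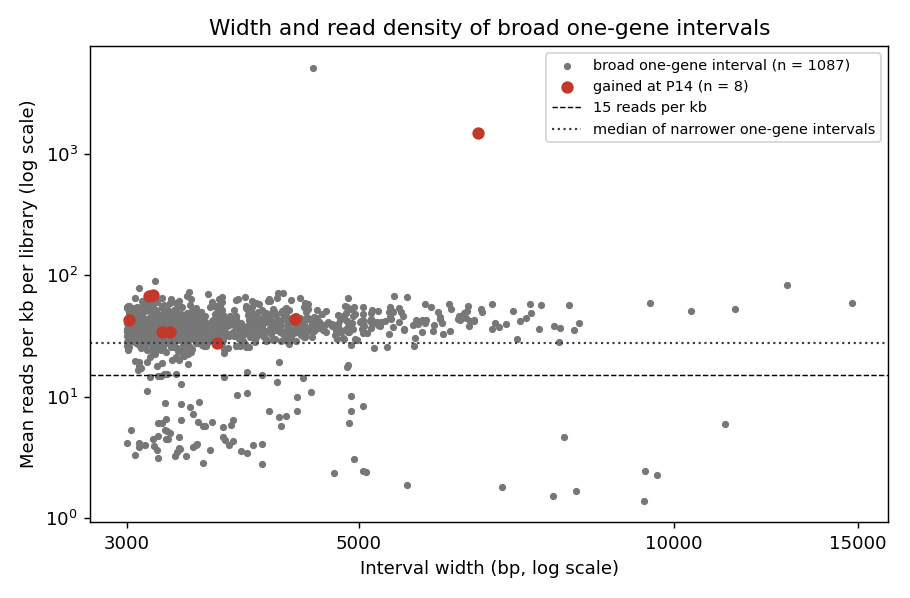
Mean read density over the 6 libraries (reads per kb) against interval width (bp), both on log axes, for the 1087 broad intervals, with the 8 that rose at P14 in red, a dashed line at 15 reads per kb and a dotted line at the median of narrower intervals, 27.5. Most points lie near 37.3 reads per kb at all widths, 86 lie below the dashed line, and 2 lie far above the rest.

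The widest interval lay in Fasn, which encodes fatty acid synthase (chr11:120806632-120821419, 14787 bp). It had 453, 532 and 426 P1 reads against 2415, 836 and 576 at P14. Relative to the other gene-named intervals its log2 change was 0.20 with a standard error of 0.19, and it did not pass. Without P14 replicate 1 the log2 change at Fasn was -0.03. Plec, the gene of the cytoskeletal linker plectin, followed with 12823 bp (chr15:76172039-76184862), and Spen, a transcriptional co-repressor, with 11436 bp (chr4:141468364-141479800). Itpr3, a calcium release channel of the endoplasmic reticulum, had an interval of 10383 bp (chr17:27109990-27120373). These 4 were dense, with 59.0 reads per kb at Fasn, 83.4 at Plec, 52.7 at Spen and 50.9 at Itpr3. The other two of the 6 widest, Fam73a (11190 bp) and Ahnak2 (9626 bp), were sparse, with 5.9 and 2.3 reads per kb.

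A minority of the broad intervals was sparse. With a limit of 15 reads per kb, set after the values were seen, 86 broad intervals (7.91%) were sparse, against 1.91% of the narrower intervals and 3.99% of the broad intervals with several genes. Their median density was 4.69 reads per kb. Among the 86, 58 touched another listed interval on both sides, and 41 of these were less dense than both neighbours. Of the 1001 denser broad intervals 439 touched a neighbour on both sides, 436 of them were denser than both, and 0 were less dense than both. The sparse share was 6.81% from 3000 to 3500 bp and 26.9% among the 26 intervals of at least 7000 bp. How an interval this sparse came to be listed cannot be read from the table and was not tested.

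At the other end of the density range, 2 intervals held more reads than any others. AC242409NA1 (chr14:19415315-19419832), a symbol with no RefSeq gene at the place, had 27307, 29103 and 26553 P1 reads against 6057, 22085 and 29411 at P14. AY036118, a long non-coding RNA gene (chr17:39842595-39849091), had 4027, 3469 and 1535 P1 reads against 32115, 10133 and 6972 at P14. The AY036118 interval also contains Rn18s-rs5, which RefSeq lists as a pseudogene and whose name marks it as related to 18S ribosomal RNA. Whether reads of the repeated ribosomal DNA were counted there was not tested. How reads with several possible origins were treated is not stated in the labels. The pair took 25.6%, 24.8% and 23.4% of all reads in broad intervals at P1 and 9.38%, 16.0% and 24.5% at P14. Sums over the broad intervals are for this reason given with and without them. Ranked by mean CPM per kb, which gives each library equal weight (CPM is reads scaled to each library's gene-named intervals), the next were Zfp180, a zinc finger gene, Heatr7b1, Plec and Celsr1, a cadherin of planar cell polarity. Their read densities were 90.5 reads per kb at Zfp180, 67.7 at Heatr7b1, 83.4 at Plec and 78.3 at Celsr1.

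The broad intervals that lay inside their genes sat towards the far end. Of the 1056 whose gene was found in the RefSeq table (GRCm38.p6), 79 of them through an older symbol, 946 (89.6%) lay wholly inside the gene, 97 (9.19%) crossed an edge of it, 10 lay within 5000 bp of it and 3 lay farther away. Protein-coding genes made up 98.5%. For the 763 inside a gene whose strand the promoter table gives, the midpoint lay at a median of 70.4% of the way from start to end, against 60.8% for 42401 narrower intervals. The first 20% of the gene held 5.77% of the broad midpoints and 12.2% of the narrower ones. The last 20% held 31.7% and 27.2%, and the stretch from 60% to 80% held 30.3% and 23.8%. Intervals that crossed a gene edge, 9.19% of the broad and 3.81% of the narrower ones, have no place in these positions. A start of their own gene was covered by 2.18% of the broad and 1.25% of the narrower intervals. The genes with broad intervals were also longer, with a median length of 41.8 kb against 27.4 kb. Intervals of the same gene are not independent, and these shares carry no test.

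**Figure D2:**
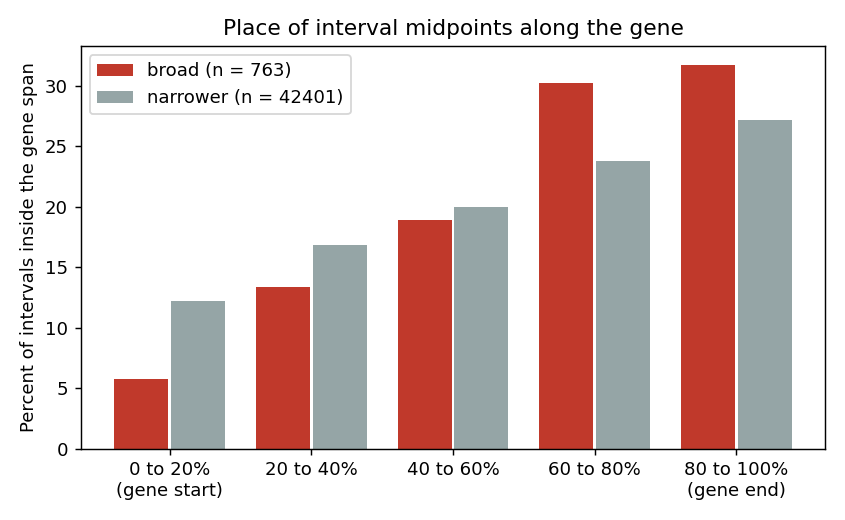
Share of intervals inside their gene (percent) by the position of the midpoint, for 763 broad and 42401 narrower intervals. Positions run from the gene start (0 to 20%) to its end (80 to 100%). Broad intervals hold 5.77% in the first bin and 31.7% in the last, and narrower ones 12.2% and 27.2%.

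How the reads in broad intervals compared between the ages depended on what they were divided by. Their share of all reads was 0.691% ± 0.0508 in the P1 libraries, against 1.27% ± 0.540 in the P14 libraries (SD, n = 3 each), and the 2 ages did not overlap (exact permutation test, two-sided, p = 0.1, the smallest that 3 against 3 libraries allow). Relative to intervals without a gene symbol, their read density was 5.37 ± 0.426 times as high at P1 and 11.1 ± 5.78 times as high at P14 (SD, n = 3 each; exact permutation p = 0.1). Without P14 replicate 1 the difference, P14 minus P1, went from 0.580 to 0.269 percentage points for the share and from 5.75 to 2.43 for the relative density. As a share of the reads in gene-named intervals they held 8.44% ± 0.342 at P1 and 7.93% ± 0.188 at P14 (exact permutation p = 0.2). Without AC242409NA1 and AY036118 these shares were 6.36% ± 0.168 and 6.60% ± 0.505, which turned the direction of the difference (exact permutation p = 0.5). The density relative to the narrower intervals was 1.56 ± 0.0725 at P1 and 1.46 ± 0.0310 at P14 (exact permutation p = 0.2), and without the pair it was 1.18 and 1.22 (exact permutation p = 0.7). Of the 11 such tests none passed after Benjamini-Hochberg adjustment, the smallest adjusted exact permutation value being 0.183.

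In the test over the whole table nearly every broad interval leaned towards P14, and 0 passed. Among 1084 broad intervals tested, 1066 had a positive log2 change from P1 to P14, with a median of 0.73 against 0.12 over all 209063 intervals. The median was also 0.73 in the narrower intervals with a single gene. With edgeR's quasi-likelihood test none reached an adjusted p below 0.05, and the share called over the whole table was 0.0% too. At an unadjusted p below 0.05 there were 699 broad intervals (64.5%), compared with 23.0% of all intervals and 32.0% of the narrower ones. Broad intervals with several genes had a higher share still, 79.3% of 275, and a median log2 change of 0.87. DESeq2 on the same table called 4, at AY036118, Rhpn1, Zfp316 and Zfp516, against 0.0308% of all intervals. The result turned on 1 library. Without P14 replicate 1, 64 broad intervals (5.90%) passed with edgeR, all higher at P14, where 0.169% of all intervals were called higher. Most calls over the whole table were lower at P14 there, with 353 higher and 2988 lower. In that setting the broad intervals had a median log2 change of 0.40, and all intervals had 0.04. Without both replicates 1 the number was 227 (20.9%, against 1.23% of all intervals).

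Relative to the other gene-named intervals the broad intervals had a median log2 change of 0.00 between the ages, and 8 of them rose. Of 1072 broad intervals tested, 8 had more reads at P14 at an adjusted p below 0.05 and 0 had fewer (edgeR, quasi-likelihood test over 61355 gene-named intervals). Over all gene-named intervals 0.2% were called higher and 2.21% lower, 2.41% in all, so the 8 amount to 0.746% beside 0.2% and the 0 stands beside 2.21%. For the narrower intervals the shares were 0.156% higher and 2.34% lower. Of 275 tested broad intervals with several genes, 7 (2.55%) were called higher and 1 (0.364%) lower, and their median log2 change was 0.11. More higher than lower calls were thus found in that class too. The differences between the classes were not tested. The 15 broad intervals that did not pass the low-count filter were all among the 86 sparse ones. At an unadjusted p below 0.05 there were 81 higher and 48 lower broad intervals, against 7.84% of all tested intervals in either direction. The median over all tested gene-named intervals was 0.00 as well, and the log2 changes of the broad intervals had an SD of 0.33 against 0.54 in the narrower ones. The median standard error was 0.22 and 0.37, in the order broad and narrower, which goes with the larger number of reads in a broad interval.

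More broad intervals were fully separated by age in the lower direction than in the higher. All P14 libraries lay above all P1 libraries in 83 broad intervals (7.74%, against 5.26% of all tested gene-named intervals). They lay below all P1 libraries in 122 (11.4%, against 6.71%). The broad intervals with several genes leaned the other way, with 29 (10.5%) fully higher and 15 (5.45%) fully lower at P14.

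Of the 8 that rose, Zfp316, a zinc finger gene, had the largest change (chr5:143252138-143255800). It had 25, 38 and 20 P1 reads against 350, 94 and 78 at P14, or 19.1, 25.6 and 13.8 counts per 1000000 reads in gene-named intervals (CPM) against 71.7, 37.0 and 43.4. Its level was 2.64-fold higher at P14, a log2 change of 1.40 with a standard error of 0.29 (edgeR, adjusted p = 0.0189). Every P14 library was above every P1 library, and P14 replicate 1 was the highest.

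Tnxb (chr17:34670273-34673576) rose by 1.32 on the log2 scale, with a standard error of 0.35 (edgeR, adjusted p = 0.0484). Its CPM was 20.6, 27.6 and 15.9 at P1 and 91.5, 29.5 and 33.9 at P14, so that 2 of the P14 libraries were just above the highest P1 library and the other was far above it. This is the interval over the internal Tnxb start printed above, and it was the only one of the 23 intervals over a start that passed. Mtap1s, which encodes a microtubule-associated protein (chr8:70912306-70915484), had 48.8, 68.0 and 24.9 CPM at P1 and 155, 77.6 and 82.9 at P14. Its log2 change was 1.17 with a standard error of 0.30 (edgeR, adjusted p = 0.0366). Again the highest P1 library and the lowest P14 library were close.

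At AY036118 the log2 change was 1.16 with a standard error of 0.27 (edgeR, adjusted p = 0.0256). This is the dense interval with the ribosomal RNA-related pseudogene. Rhpn1, which encodes rhophilin 1 (chr15:75711268-75714509), rose from 22.9, 32.3 and 28.4 CPM to 66.3, 51.6 and 46.7, a log2 change of 0.99 (standard error 0.24; edgeR, adjusted p = 0.0300). The P1 and P14 libraries of Rhpn1 were well apart. Mn1, a transcriptional co-regulator gene (chr5:111418980-111421997), had 37.4, 35.0 and 23.5 CPM at P1 and 85.4, 58.3 and 42.3 at P14 (log2 change 0.98, standard error 0.26; edgeR, adjusted p = 0.0484).

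Zfp516, a zinc finger transcription factor gene with a known role in brown fat (chr18:82954539-82957687), had 58.8, 66.7 and 43.6 CPM at P1 and 134, 93.3 and 85.7 at P14. The log2 change was 0.90 with a standard error of 0.23 (edgeR, adjusted p = 0.0363). Aatk, an apoptosis-associated kinase gene best known from neurons (chr11:120008927-120013270), had 46.5, 55.2 and 47.7 CPM against 124, 74.0 and 72.3, a log2 change of 0.87 (standard error 0.23; edgeR, adjusted p = 0.0484). P1 libraries of Aatk lay close together, and P14 replicate 1 was far above the other two P14 libraries.

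**Figure D3:**
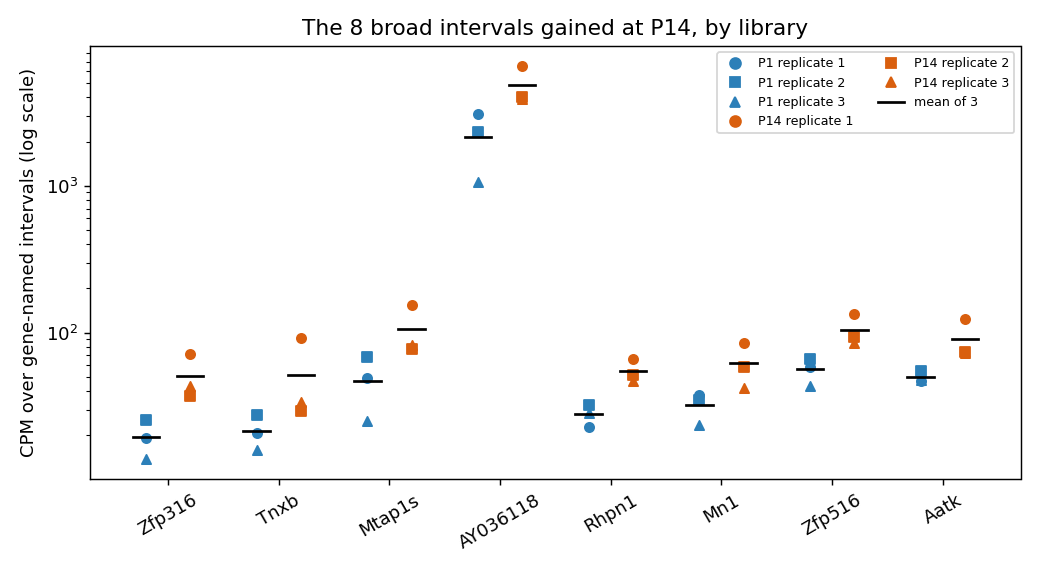
CPM (log axis) in each of the 6 libraries for the 8 broad intervals that rose, P1 and P14 shown apart with 3 points each and their mean as a black bar. In all 8 the P14 points lie above the P1 points, and P14 replicate 1 is the highest point.

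The calls depended on which libraries were used. P14 replicate 1 was the highest of the 6 libraries in all 8 intervals, whereas it was the highest of the P14 libraries in 54.7% of the tested broad intervals. Without it the 8 log2 changes were still positive, from 0.55 to 1.03, but 0 passed, the smallest adjusted p with edgeR being 0.172. Without P1 replicate 3 none passed either (smallest adjusted p with edgeR 0.0853). Leaving out P1 replicate 1 gave 4 broad intervals that rose, 2 of them among the 8. Leaving out P1 replicate 2 gave 2 and leaving out P14 replicate 2 gave 4, all among the 8. Leaving out P14 replicate 3 gave 12, which include the 8. Without both replicates 1 again 8 broad intervals rose, 3 of them among the first 8, beside 96 of 61355 gene-named intervals. DESeq2 gave 9, with 6 of the 8 among them, beside 93 of 68634. Without TMM factors 10 rose, which include the 8, beside 0.212% of all gene-named intervals. Scaled to the reads in intervals without a gene symbol instead, 85 broad intervals (7.93%) rose, beside 8.95% of all gene-named intervals.

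Of the broad intervals that were lower at P14, none passed, and the 4 with the smallest p were all sparse. Lyrm7, which encodes an assembly factor of respiratory complex III (chr11:54853723-54857427), had 32, 15 and 21 P1 reads against 26, 19 and 11 at P14 (log2 change -1.37, standard error 0.39; edgeR, adjusted p = 0.0652). Mb21d2 held 41, 40 and 36 reads against 69, 37 and 29 (log2 change -0.90; edgeR, adjusted p = 0.0719). For Rrp15, a ribosome biogenesis gene, the log2 change was -0.89 and for March3, a ubiquitin ligase gene, it was -1.60 (edgeR, adjusted p = 0.103 for each). Their reads per library were few, and the raw reads of the 2 ages overlapped at all 4. In CPM, which is scaled as in the test, every P14 library lay below every P1 library at all 4. The same held for 11.4% of all tested broad intervals. Mb21d2 had 31.3, 26.9 and 24.9 CPM at P1 and 14.1, 14.6 and 16.1 at P14. The dense AC242409NA1 interval had a log2 change of -1.16 with a standard error of 0.44 (edgeR, adjusted p = 0.281). P14 replicate 1 was the library with few reads there, and of the other two P14 libraries 1 lay below and 1 above the P1 range in raw reads. As CPM the P1 libraries had 20837, 19606 and 18361 and the P14 libraries 1240, 8697 and 16366, all below the P1 range.

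The change between the ages went with read density. Over 1070 broad intervals without the 2 densest, the log2 change and the log2 density had a Pearson r of 0.367 and the Spearman rho was 0.350. This correlation is across intervals of the same 6 libraries, and the density itself contains the P14 reads, so it is given as a description. In 5 bands of 214 intervals from sparse to dense, the median log2 change was -0.14, -0.03, -0.03, 0.00 and 0.23, and 70, 97, 99, 108 and 166 intervals were positive. The 71 sparse intervals tested had a median of -0.22 with 14 positive, against 0.01 with 527 of 1001 positive for the denser ones. Width itself was hardly related to the change, with a Spearman rho of 0.0677.

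**Figure D4:**
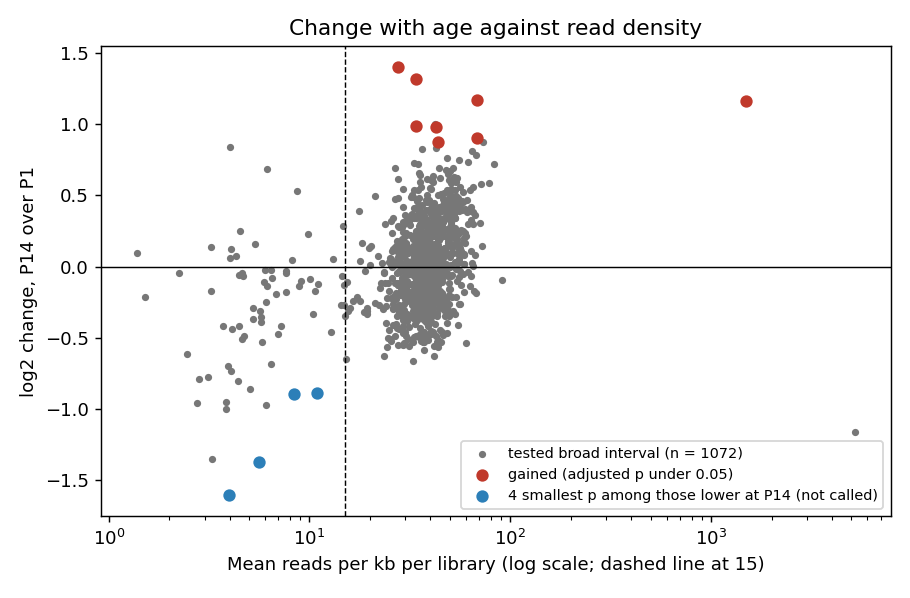
Log2 change from P1 to P14 relative to the other gene-named intervals, against mean read density (reads per kb, log axis), for the tested broad intervals, with the 8 that rose in red, the 4 lower ones with the smallest p in blue and a dashed line at 15 reads per kb. The medians of 5 equal bands run from -0.14 at low density to 0.23 at high density.

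Several genes held more than 1 broad interval. There were 129 such genes, with 330 of the broad intervals (30.4%), and 757 genes had 1. Cit, the gene of citron kinase, which acts in cytokinesis, had the most, with 9 intervals of 3001 to 5956 bp that cover 22.9% of the gene. Their summed CPM was 795, 700.0 and 738 at P1 and 635, 671 and 695 at P14, and the highest P14 library was just below the lowest P1 library. The 9 log2 changes ran from -0.41 to 0.11 with a median of -0.14, 1 was positive, and none passed (edgeR, smallest adjusted p 0.79).

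Nphp4, which encodes a protein of the ciliary transition zone, had 6 broad intervals over 34.6% of the gene. Summed CPM was 532, 534 and 574 at P1 and 654, 533 and 573 at P14, so the 2 ages overlapped. Ube3b, a ubiquitin ligase gene, had 5 that took up 59.7% of it, with 462, 458 and 433 CPM at P1 against 562, 489 and 413 at P14. Dnahc17, an axonemal dynein heavy chain gene, had 6 intervals with log2 changes from -0.16 to 0.44. None of the intervals at these genes passed. Gm20388 had 7, but they were spread over 2.64 Mb of chromosome 8, the symbol has no entry in the RefSeq table used, and their density ran from 1.52 to 30.7 reads per kb. Across 127 genes with at least 2 tested intervals, the SD of the log2 change was 0.23 within genes and 0.29 over all 326 of their intervals.

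**Figure D5:**
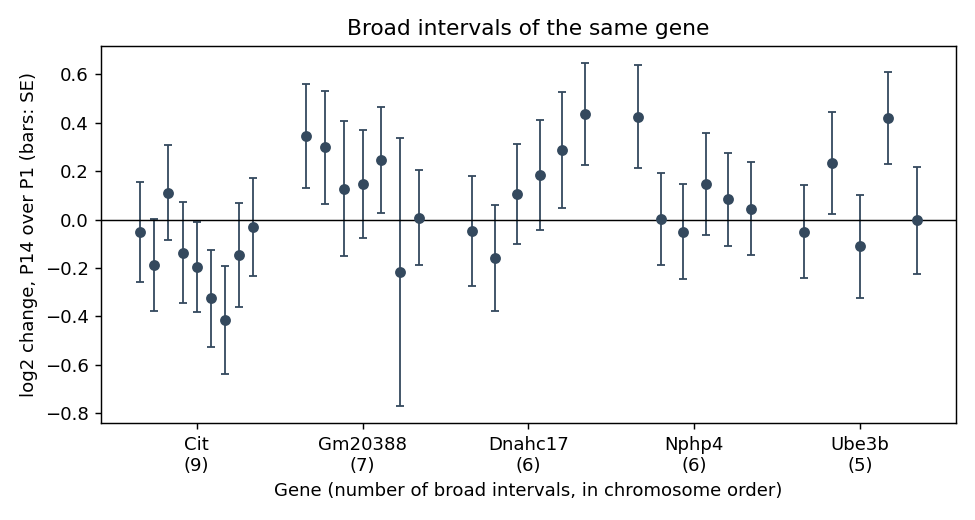
Log2 change from P1 to P14 of each broad interval, with its standard error, at the 5 genes with the most of them. Of the 9 Cit intervals 8 lie below 0, and at no gene did an interval pass the test.

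Genes were also read by function, from lists chosen with earlier results of these data known. Over all tested gene-named intervals the median log2 change was 0.00, and 0.2% were called higher. The chromatin and DNA methylation list had 15 broad intervals at 12 genes, among them Dnmt1 and Dnmt3a, which methylate DNA, Tet3, which oxidises methylcytosine, and Mbd1, which binds methylated CpGs. Their median log2 change was 0.11, 12 of 15 were positive and 0 passed. The highest in CPM per kb were at Ehmt2, a histone H3 methyltransferase gene (123, 118 and 118 P1 reads, then 754, 255 and 137 at P14; log2 change 0.39, standard error 0.23), and Mbd1 (129, 107 and 95 reads against 407, 175 and 119; log2 change -0.10, standard error 0.21).

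The matrix list had 16 broad intervals at 12 genes, a median of 0.00, and 1 that rose, at Tnxb. Its highest in CPM per kb were at Agrn, the proteoglycan agrin (log2 change 0.36), and Lama5, a laminin chain (0.29). For signalling by Wnt, Hedgehog, BMP, FGF and Notch there were 10 at 9 genes, with a median of 0.31, 7 positive and 0 passing. Jag2, a Notch ligand, had 209, 216 and 175 P1 reads against 1243, 447 and 274 at P14 over 7456 bp (log2 change 0.46, standard error 0.21; edgeR, adjusted p = 0.547). Lef1, a transcription factor at the end of the Wnt pathway, had a log2 change of -0.31 with a standard error of 0.20.

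Calcium handling and ion channel genes had 10 broad intervals at 8 genes with a median of 0.04, 6 positive and 0 passing. They include Itpr3 (log2 change 0.54). The synaptic and neuronal list had 15 at 12 genes, with a median of 0.19, 9 positive and 0 passing, and its highest in CPM per kb were at Celsr1 (0.59) and Celsr2 (0.30). The imprinted list had 5 at H13, Peg10, Peg3 and Trappc9, with a median of -0.16, 1 positive and 0 passing. Peg10, a retrotransposon-derived imprinted gene, had 99, 141 and 110 P1 reads against 352, 190 and 133 at P14 (log2 change -0.16, standard error 0.20).

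The cardiac transcription factor list had 0 broad and 68 narrower intervals, the homeobox and neural developmental transcription factor list had 0 and 88, and the endothelial and blood marker list had 0 and 146. With broad intervals at 1.77% of all intervals with a single gene, few would stand in lists of this size. Among fibroblast, smooth muscle and epicardial markers, Cspg4 (log2 change 0.38) and Pdgfrb (0.11), both genes of pericytes and mesenchymal cells, had 1 each, and neither passed.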

How the data were processed

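MBD-seq libraries from 3 P1 and 3 P14 samples were compared. The deposited table gives raw read counts per interval and library in 221524 lines, per the file headers, where an interval recurs when it has several genes. BWA, MACS, bedtools, edgeR 3.2.4, GRCm38 and mm10 are named per the submitters' processing notes, without their roles. Coordinates are given as in the table. Of repeated lines 1 per interval was kept.

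Counts were tested for age with edgeR 4.0.16 (R 4.3.3; TMM factors, default low-count filter, quasi-likelihood F test, Benjamini-Hochberg adjustment), once over the whole table and once over gene-named intervals. DESeq2 1.42.0 was an alternative. The steps were tested on simulated data. Shares and densities were compared by two-sided exact permutation tests. CPM is per 1000000 reads in gene-named intervals after TMM scaling.

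The intervals and gene lists were chosen with earlier results of these data known. Named intervals are the 6 widest, the 6 highest in mean CPM per kb, those that passed or had the smallest p, the genes with most intervals, by the same measure the highest per list and over a start, and those beside the width limit. The smaller choices marked as made after seeing values lie outside this rule. Interval sequences were not used here. Values of a few genes of the lists are not reported here.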

Additional observations from a re-analysis of the deposited data

How the results depend on the processing

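The labels do not say that replicate numbers mark a shared litter or batch, and whether they do was described by correlations without a test. The deviations of same-numbered libraries from their age means had correlations of -0.028, -0.044 and 0.043. For P1 and P14 libraries with different numbers they ran from -0.036 to 0.067. With the replicate number as a block 0 broad intervals rose relative to the other gene-named intervals, in place of 8. All 8 stayed positive in every setting that contained them. The number was 85 when scaled to reads in intervals without a gene name (7.93% of those tested, against 8.95% of all gene-named intervals), where the median log2 change of the broad intervals was 0.96 in place of 0.00. That scaling moved the median of all tested gene-named intervals to 0.94, and it called 5489 higher and 136 lower in place of 123 and 1357. Without the low-count filter 5 rose, and leaving out single libraries gave 0 to 12. The number was 10 without TMM factors, 9 with DESeq2 and 8 without both replicates 1. Broad intervals that fell numbered 0 to 1 with single libraries left out, the 1 being AC242409NA1 without P14 replicate 3. Without P14 replicate 1, or with the block, 0 gene-named intervals were called in either direction. Over the whole table, broad intervals called numbered 0 to 64 with single libraries left out and 4 with DESeq2, in place of 0. Without both replicates 1 the number was 227, all higher at P14 (20.9% of those tested, against 1.23% of all called higher).

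The share of named reads differed by -0.517 percentage points, P14 minus P1, and by 0.127 without intervals in the top 1% of density and 0.240 without the 2 densest. The density relative to narrower intervals differed by -0.0944, and by 0.0261 and 0.0458 in those settings, the last chosen after seeing the data. The cause of these moves, where leaving out intervals or libraries does not give it, was not tested. With 83.3 reads in a median broad interval at P1 and 13.5 in a sparse one, changes in sparse intervals were measured with little precision.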

Other observations

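Broad intervals were unevenly spread over the genome. Chromosome 5 carried 144 of them (13.2%, against 7.8% of the narrower intervals with a single gene) and chromosome 14 the fewest, 19. The stretch from 110 to 125 Mb of chromosome 5 held 84 at 50 genes, among them all of those at Cit and Ube3b and the interval at Mn1 that rose. There they made up 5.96% of the intervals with a single gene. Their median log2 change was 0.01, with a range from -0.54 at P2rx7, an ATP-gated channel gene, to 0.98 at Mn1. Of 499 windows of 5 Mb with such an interval, 219 had no broad one and the median was 1. On chromosome 10 the window from 80 to 85 Mb held 17 broad intervals at 15 genes with a median log2 change of 0.42. This window was picked after its value was seen, and no test was made.

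The 23 intervals over a gene start had a median log2 change of 0.12, with 17 positive. They include those of Olfr279, an odorant receptor, Lat, a T cell adaptor, and Cyp8b1, a bile acid enzyme, examples chosen after seeing the list. Olfr279 had 40, 79 and 49 P1 reads against 292, 92 and 67 at P14. Lat held 74, 67 and 80 against 245, 98 and 78, and Cyp8b1 held 118, 117 and 115 against 385, 166 and 165. The lowest P14 library at Olfr279 and at Lat lay within the P1 range in raw reads.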
